A study of Mus musculus with 20 samples.

Results

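A single metastasis from a mouse treated with CM272 and cisplatin was set beside 4 untreated metastases, and these 5 arrays are 5 of the 20 in the series. The treated metastasis was chosen by its sample title, and its group has 1 member, so every difference below is a description of these arrays and none was tested. All mice were of the FVB/N strain and carried one genotype with several engineered loci, among them Rbf/f, a floxed retinoblastoma gene, and p107-/-. Bladder tumors were started by an adenovirus that carries Cre recombinase into the bladder, where floxed genes are then deleted, and the metastases came from such mice. The treated mice received CM272 into the peritoneal cavity at 5 mg/kg per day for 30 days and CDDP (cisplatin) at 6 mg/kg once per week, and the untreated metastases carry no treatment label. The labels call the tissue of all 5 arrays metastatic tumor, and they do not name the organ, the age of the mice or which metastases share a mouse. The other 15 arrays were 7 bladder tumors, 3 treated bladders and 5 control bladders of the same genotype, the last without a Cre label, and their values are given only as levels.

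CM272 inhibits both G9a, the enzyme encoded by Ehmt2 that places methyl groups on lysine 9 of histone H3, and DNA methyltransferases such as Dnmt1, which copy methylation of CG dinucleotides onto new DNA strands. Both marks accompany silent genes, and their loss can allow genes to be transcribed. Cisplatin crosslinks DNA and stops dividing cells. A metastasis is a mixture of carcinoma cells, fibroblasts with their matrix, vessels, immune cells and the cells of the organ it grew in. In such bulk RNA, fewer cells of a type and less RNA per cell cannot be told apart.

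The arrays gave a log2 value for each of 30142 named genes, so a difference of 1 is 2-fold. The treated metastasis resembled metastasis 1 most. Across all genes, its deviations from the mean of the 20 arrays correlated with those of metastasis 1 at r = 0.59, with metastasis 2 at 0.33, and with metastases 3 and 4 at -0.08 each. Outside the metastases, the closest array was bladder tumor 6 (r = 0.55), and the furthest were treated bladder 3 (-0.61), treated bladder 1 (-0.59) and bladder tumor 1 (-0.54). Treated bladder 2 stood near 0 (0.01). These correlations are over genes, which are not independent, and all arrays enter the mean they deviate from.

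**Figure D1:**
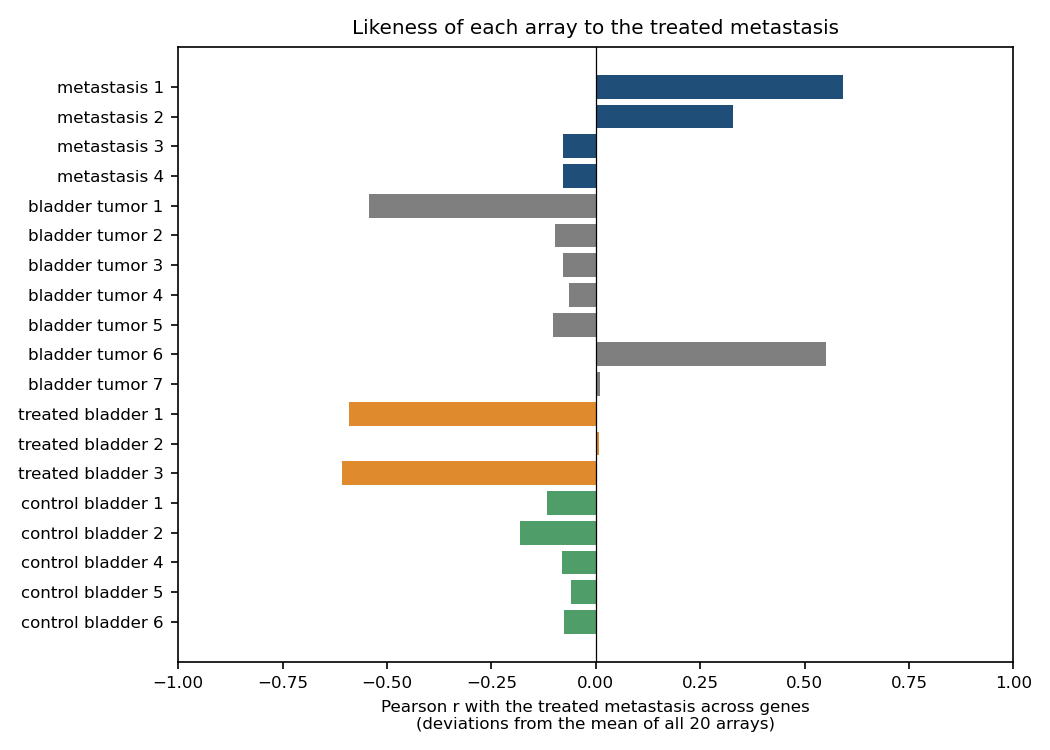
Pearson r across 30142 genes between the treated metastasis and each of the other 19 arrays, as bars coloured by group, with deviations from the mean of all 20 arrays. Metastasis 1 (0.59) and bladder tumor 6 (0.55) reach furthest to the right, and treated bladders 1 and 3 (-0.59 and -0.61) furthest to the left.

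Metastases 3 and 4 stood apart from the other metastases in one respect that touches each result. Over 40 gene lists, the mean level of a list was never further than 0.17 from the mean of all 20 arrays in metastasis 3, and never further than 0.18 in metastasis 4. The furthest list lay 1.35 away in the treated metastasis, 1.34 in metastasis 1 and 1.88 in metastasis 2. The highest correlation of metastasis 3 with any other array was 0.11, and that of metastasis 4 was 0.09. Differences are therefore given against all 4 untreated metastases and against metastases 1 and 2 alone. Bladder tumors 3, 4 and 5 and control bladders 4, 5 and 6 also lay near the mean of all 20 arrays. Their furthest lists were 0.14 to 0.23 away, and their highest correlations with any other array were 0.07 to 0.14. These arrays enter the mean and the ranks of 20 arrays below. Another feature was the level of 1431 chemosensory receptor genes, which are silent in most tissues: their mean was 4.62 in the treated metastasis, 4.67 in metastasis 1 and between 4.88 and 4.93 in the other 3. Of these receptors 519 lay below the untreated range and 86 above it, so the lowest values on the treated array come with a lower floor, and its part in them was not tested.

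Of 30142 genes, 330 (1.09%) read over 2-fold above the mean of the 4 untreated metastases and above the highest of them, and 73 (0.242%) read over 2-fold below and under the lowest. Without the fold threshold, 4336 genes (14.4%) lay above the untreated range and 5760 (19.1%) below it. Against metastases 1 and 2 alone, 203 genes (0.673%) were higher and 102 (0.338%) lower, and 173 of the 330 and 29 of the 73 were among them. Without the fold threshold, 25.6% of genes lay above both of these arrays and 32.3% below both. The median difference over all genes was -0.04. On 128 of the 330 genes the treated metastasis was the highest of all 20 arrays, and on 50 of the 73 it was the lowest. Over all 30142 genes it was the highest on 691 and the lowest on 1608. Both sets were chosen for standing outside the untreated range, which favours such ranks. The higher set was not typical of the array in its make-up: pseudogenes were 159 of the 330 (48.2%) but 14.2% of the genes measured. Protein-coding genes were 101 (30.6%, against 63.2% of the genes measured). Variable (V) segments of antigen receptors were 23 (6.97%, against 0.989%). The lower set held 45 protein-coding genes (61.6%), near their share of the genes measured, and 12 small nuclear RNA genes (16.4%, against 3.03%). A pseudogene can share its sequence with an expressed parent gene, so its row need not read the pseudogene. After a further quantile normalization of the 20 arrays the higher set held 168 genes, with 71 pseudogenes, 50 protein-coding genes and 22 V segments, and the lower set held 77. The higher set made up 81.9% of both sets as deposited, 68.6% after quantile normalization and 66.6% against metastases 1 and 2. Metastasis 1 weighed most on the counts: without it, 608 genes were higher and 165 lower. Bladder tumor 6 also read over 2-fold above the mean of the untreated metastases on 176 of the 330 genes. These genes were chosen for high values on the treated array, with which bladder tumor 6 correlated (r = 0.55). The share over all genes was not counted, so 176 has no baseline here.

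Leaving out predicted genes, small RNAs, pseudogenes, antigen receptor segments and chemosensory receptors, 97 higher and 34 lower genes remained, and the 15 furthest on each side are described. At the 2-fold edge, Wls lay just past and Clic4 just short on the higher side, and Apod (-1.05) and Serpinb2 (-0.99) on the lower. Lgals1, Angptl7, Ogn, Dcn and Hspa8 were furthest above the untreated metastases, and Sptssb, Gstm1, Sprr2b, Upk3a and Gsdmc2 furthest below. On 14 of the 15 lower genes the treated value was under the mean of the chemosensory receptors on that array (4.62), all but Gstm1, so these differences are between a value at the floor of the array and higher ones, and their exact size is not determined. On 11 of the 15 higher genes the treated metastasis was the highest of 20 arrays, and on 14 of the 15 lower genes the lowest. The choice of the furthest genes favours such ranks. Against metastases 1 and 2 alone, 14 of the 15 higher genes and 12 of the 15 lower genes stayed past 2-fold and outside the range, all but Trf, Actg2, Ly6d and Snx31. After the further quantile normalization 13 of the 15 higher genes did, all but Cd55 and Tuba1c, and all 15 lower genes.

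**Figure D2:**
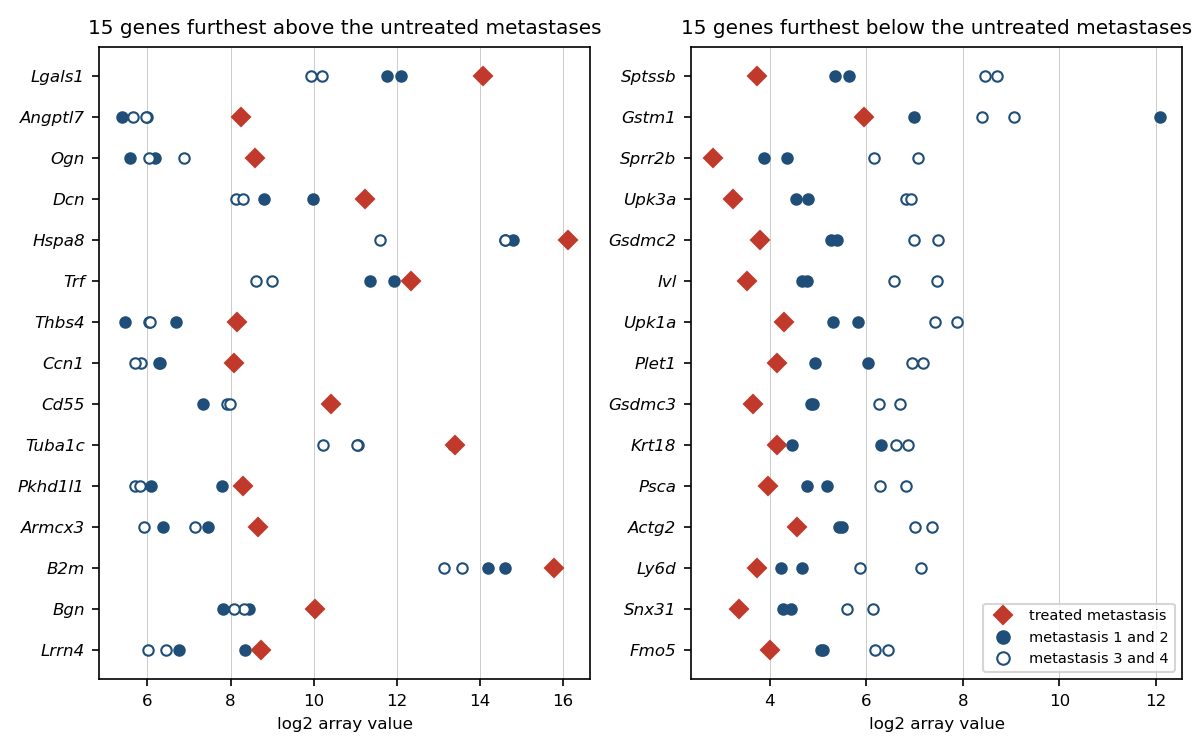
Log2 array values of the 15 genes furthest above (left) and the 15 furthest below (right) the untreated metastases, with the treated metastasis as diamonds, metastases 1 and 2 as filled circles and metastases 3 and 4 as open circles. Lgals1 reads 14.06 in the treated metastasis against 9.95 to 12.11, and Upk3a reads 3.24 against 4.55 to 6.93. Metastases 1 and 2 lie below metastases 3 and 4 on 14 of the 15 lower genes, and the diamond covers metastasis 2 on Cd55 (10.39) and metastasis 1 on Tuba1c (13.36).

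Promoters of the genes that read low and high are shown because the treatment acts on an enzyme that methylates CG dinucleotides. Each line gives the 250 bases before the RefSeq start of a gene, 5′ to 3′ on the gene's strand, with CG in capitals. Upk3a, Upk1a and Krt18 read lower in the treated metastasis, and Ogn and B2m read higher.
Upk3a: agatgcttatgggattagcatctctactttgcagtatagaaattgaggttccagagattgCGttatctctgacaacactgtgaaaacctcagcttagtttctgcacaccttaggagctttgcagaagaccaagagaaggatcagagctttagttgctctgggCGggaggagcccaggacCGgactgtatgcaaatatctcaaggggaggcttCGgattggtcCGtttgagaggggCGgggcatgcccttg
Upk1a: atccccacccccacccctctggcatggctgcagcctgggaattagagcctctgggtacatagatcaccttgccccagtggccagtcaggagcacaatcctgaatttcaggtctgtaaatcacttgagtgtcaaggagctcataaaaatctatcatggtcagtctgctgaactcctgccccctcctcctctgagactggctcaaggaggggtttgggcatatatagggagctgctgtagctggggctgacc
Krt18: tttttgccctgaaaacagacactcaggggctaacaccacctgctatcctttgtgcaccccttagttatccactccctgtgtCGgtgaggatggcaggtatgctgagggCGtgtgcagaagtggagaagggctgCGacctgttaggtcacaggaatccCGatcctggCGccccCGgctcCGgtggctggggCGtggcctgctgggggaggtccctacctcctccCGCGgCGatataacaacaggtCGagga
Ogn: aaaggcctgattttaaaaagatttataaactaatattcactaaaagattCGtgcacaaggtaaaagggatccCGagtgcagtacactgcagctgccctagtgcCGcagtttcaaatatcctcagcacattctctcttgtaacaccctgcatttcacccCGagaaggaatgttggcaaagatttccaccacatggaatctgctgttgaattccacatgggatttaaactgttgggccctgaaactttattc
B2m: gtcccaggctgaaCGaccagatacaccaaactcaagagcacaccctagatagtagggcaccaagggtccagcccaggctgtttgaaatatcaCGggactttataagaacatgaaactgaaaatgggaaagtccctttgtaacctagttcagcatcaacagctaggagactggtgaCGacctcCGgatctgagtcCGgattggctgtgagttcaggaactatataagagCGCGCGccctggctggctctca
On GRCm38.p6 they lie at chr15:85016891-85017140 (+ strand), chr7:30612735-30612984 (- strand), chr15:102027966-102028215 (+ strand), chr13:49607765-49608014 (+ strand) and chr2:122147437-122147686 (+ strand). They hold 6, 0, 12, 4 and 8 CG in that order, where the median of 12905 protein-coding genes with 1 such window was 10. Of the 28 lower protein-coding genes with a window, 20 (71.4%) held at most 5 CG, against 12 of 59 higher genes (20.3%) and 37.3% of all. The limit of 5 was chosen after the counts were seen, the arrays hold no methylation measurement, and a CG count says nothing of whether a site was methylated.

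Matrix genes read high against both sets of untreated metastases. Lgals1, which encodes galectin-1, a secreted sugar-binding protein of fibroblasts and tumor cells, read 14.06 in the treated metastasis and 12.11, 11.77, 9.95 and 10.21 in metastases 1 to 4. It was 3.06 above their mean of 11.01 ± 1.09 (SD, n = 4), or 8.32-fold, and 4.37-fold above the mean of metastases 1 and 2. Only bladder tumor 6, at 14.09, read as high among the 20 arrays. Of the 7 other galectins measured, 2 lay above the untreated range and 3 below, and the next largest difference was 0.43 for Lgals9.

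Small leucine-rich proteoglycans, which coat collagen fibrils, were a group singled out after their values were seen. Ogn (osteoglycin) read 8.60 in the treated metastasis and 5.58, 6.17, 6.88 and 6.04 in the untreated ones. Dcn (decorin) read 11.23 against 8.80, 9.98, 8.14 and 8.30. Bgn (biglycan) read 10.02 against 7.81, 8.45, 8.32 and 8.08. All 3 lay 1.86 to 2.43 above the untreated mean, without overlap, which the rule for named genes requires. Their differences against metastases 1 and 2 were alike (1.84 to 2.72). Aspn (asporin) was 1.78 higher and Lum (lumican) 1.39 higher. Bladder tumor 6 read above the treated metastasis for Bgn (10.94) and Aspn (10.13 against 8.66). It read below the treated metastasis for Ogn (8.28) and Dcn (10.01). Of the 13 members 7 were above the range and 1, Chad (-0.28), was below, with a median of 0.23 over the list. The mean level of the 13 was 6.85 in the treated metastasis and 7.12 in bladder tumor 6.

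The list of fibroblast and matrix genes held 16 measured members, of which 10 (62.5%) lay above the untreated range, against 14.4% of all genes, and 1 below, against 19.1%. The counts of the lists that follow stand beside these same shares. The median difference was 0.76, against -0.04 for all genes, and the mean was 0.75 against 4 metastases and 0.69 against metastases 1 and 2. The list's mean level was 7.98 in the treated metastasis and 7.20, 7.37, 7.18 and 7.14 in the untreated ones. Bladder tumor 6 was higher than all of these, at 8.77. Col1a1, the main collagen chain, read 9.05 against 7.31, 8.35, 7.75 and 7.68. Tnc (tenascin C) read 7.85 against 6.64, 5.75, 6.88 and 7.07. Fn1 (fibronectin) read 11.77, level with metastasis 1 at 11.83 and above the other 3 at 8.99 to 9.93. Postn (periostin), a matrix protein of activated fibroblasts, went the other way at 6.36 against 6.74, 7.16, 8.02 and 7.78, and was the lowest of the 20 arrays.

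Other secreted and stress-related genes stood beside these. Angptl7, a secreted angiopoietin-like protein, read 8.24 against 5.38, 5.99, 5.97 and 5.65. Thbs4 (thrombospondin 4), of tendon and injured tissue, read 8.15 against 5.45, 6.68, 6.04 and 6.07. Ccn1, an immediate early matrix protein, read 8.09 against 6.27, 6.31, 5.84 and 5.70. For each of these the difference against metastases 1 and 2 alone (1.80 to 2.56) was close to that against all 4 (2.06 to 2.50). Trf (transferrin), the iron carrier of plasma, read 12.34 against 11.92, 11.35, 8.61 and 8.99, so its 2.13 rested on metastases 3 and 4 and was 0.71 against the other pair. Armcx3, of the mitochondrial outer membrane, read 8.66 against 7.46, 6.38, 7.14 and 5.91, and its difference of 1.94 was 1.10 with the mean of all its rows.

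Among matrix proteases and their inhibitors 6 of 16 lay above the range and 1 below, with a median of -0.10 and a mean of 0.07, or -0.05 against metastases 1 and 2. Mmp14, a membrane-bound collagenase, read 9.29 against 8.10, 8.94, 7.94 and 7.77, and was 1.10 above the mean. Timp2 was 0.74 higher, Mmp2 0.68 and Adamts5 0.66. The EMT and mesenchymal list had 4 of 11 above and 1 below, with a median of 0.28. Its largest member outside the range was Mmp2, followed by Itga5 (-0.51), Twist2 (0.36) and S100a4 (0.28).

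Chaperones and protein folding came next. Hspa8, the constitutive heat shock protein, read 16.11 against 14.79, 14.59, 11.59 and 14.60, where metastasis 3 stood apart. In all, 284 rows pass 16, the most that 16-bit intensities can reach as log2, and how such values arose is not stated. In the unfolded protein response list 7 of 13 lay above the range and 0 below, with a median of 0.40 and a mean of 0.46 (0.32 against metastases 1 and 2). The list's mean level was 7.29 in the treated metastasis, 7.26 in metastasis 1 and 7.48 in bladder tumor 6. Hspa5 (BiP), the chief chaperone of the endoplasmic reticulum, read 8.60 against 8.60, 7.02, 7.10 and 6.79, and so exceeded metastasis 1 only beyond the second decimal. Hsp90b1 read 9.66 against 9.51, 8.06, 8.12 and 8.36. Calr (calreticulin) read 9.18 against 9.03, 8.23, 7.97 and 7.58, and Dnajb9 was 0.58 higher. Tuba1c, a tubulin, showed the same placing at 13.40 against 13.36, 11.06, 10.22 and 11.03. On Hspa5, Hsp90b1, Calr and Tuba1c the treated metastasis and metastasis 1 thus formed the high pair, and the other 3 metastases were low.

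B2m, the light chain of MHC class I, read 15.77 against 14.59, 14.20, 13.56 and 13.13, a difference of 1.90 (1.38 against metastases 1 and 2, and 1.19 after quantile normalization), and was the highest of the 20 arrays. Genes of the class I heavy chain did not exceed metastasis 1: H2-D1 lay between metastasis 1 (9.48) and the other 3 (7.78 to 8.06), and H2-K1 read 8.66 against 8.97, 8.06, 7.52 and 7.80. The antigen presentation list had 5 of 18 above and 1 below, with a median of 0.25. Psmb9, an immunoproteasome subunit, was 0.30 higher, and H2-Eb1, a class II chain, was 0.34 lower at 5.08.

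Genes of the mesothelium formed another group singled out after their values were seen. Lrrn4 read 8.74 in the treated metastasis and 6.75, 8.36, 6.45 and 6.02 in the untreated ones. Pkhd1l1 read 8.31 against 6.09, 7.80, 5.69 and 5.81. Upk3b, a uroplakin that mesothelium also makes, read 8.18 against 5.71, 7.90, 6.37 and 6.36. In each, the treated metastasis and metastasis 2 were the high pair and the 3 other metastases were low. Gpm6a followed with 7.53 against 6.03, 7.52, 6.08 and 5.89. Wt1, a transcription factor of mesothelium, read 7.11 against 6.95, 7.19, 5.28 and 5.40. Of 12 such genes 6 lay above the range and 0 below, but Msln (mesothelin) at 4.89 and Calb2 (calretinin) at 4.71, which also mark these cells, lay within it. The mean of the 12 was 6.60 in the treated metastasis, 6.58 in metastasis 2 and 5.00 to 6.14 in the bladder tumors. Cd55, a complement regulator found on many cells, had the same pattern at 10.42 against 7.33, 10.39, 7.92 and 7.97.

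**Figure D3:**
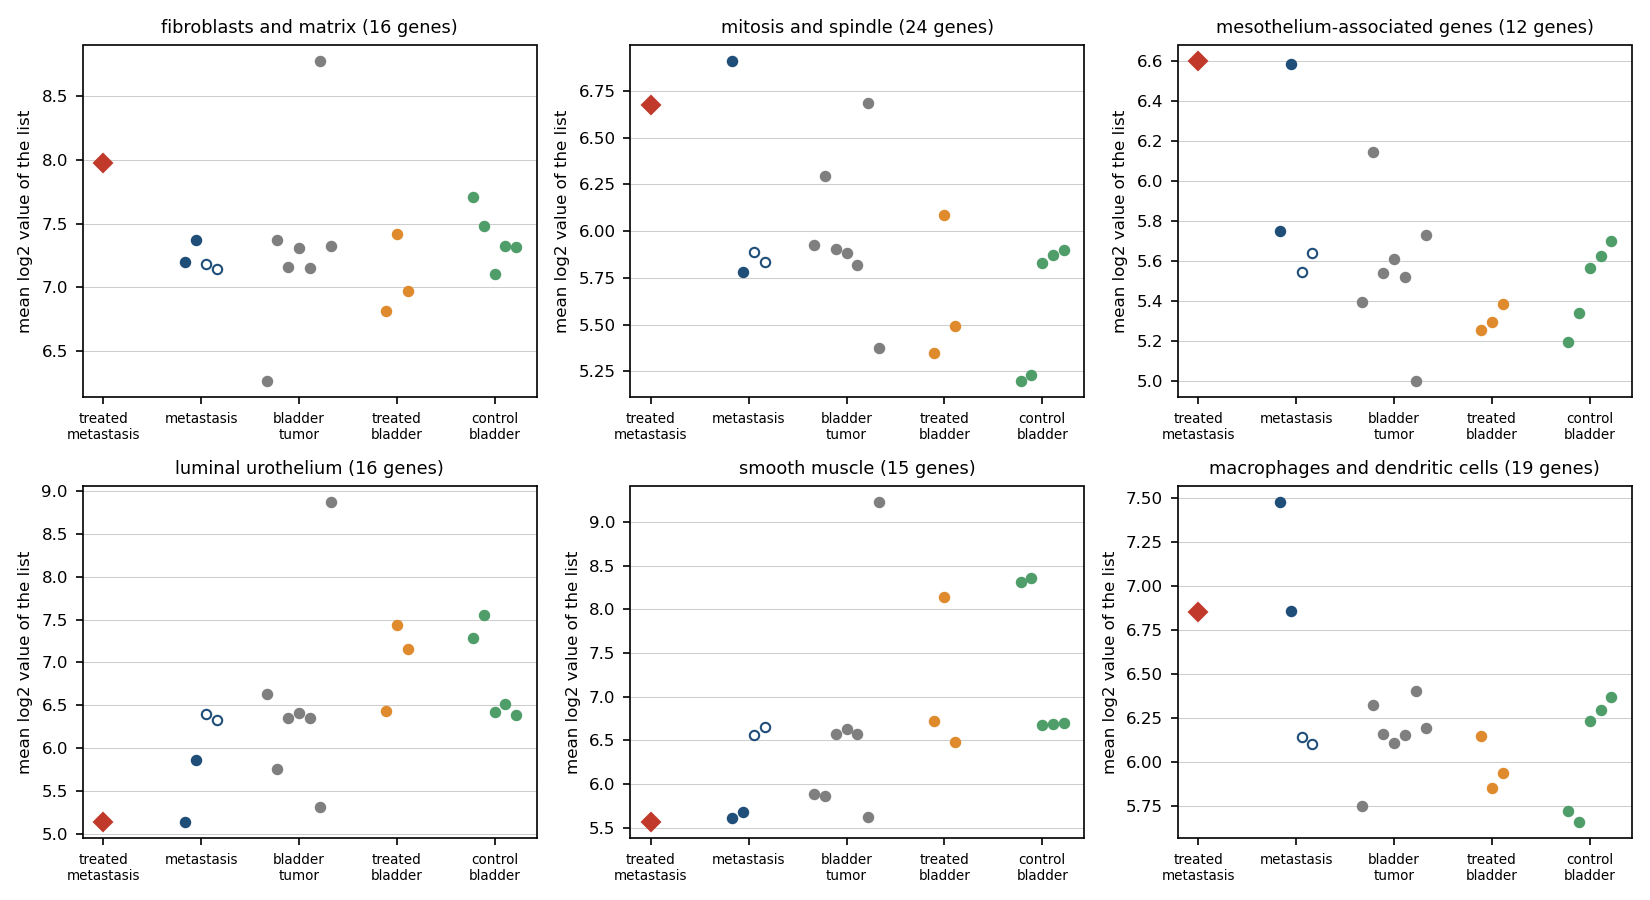
Mean log2 level of 6 gene lists in every array, by group, with the treated metastasis as a diamond and metastases 3 and 4 as open circles. The treated metastasis is above all 4 untreated metastases for fibroblast and matrix genes (7.98 against 7.14 to 7.37), lies between metastasis 1 (6.91) and the other 3 for mitosis genes (6.67), and is level with metastases 1 and 2 for smooth muscle genes (5.56 against 5.61 and 5.68).

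Immunoglobulin segments gave the largest single difference on the array, and were examined after it was seen. Igkv4-91, a kappa light chain V segment, read 13.26 in the treated metastasis and 4.49, 4.44, 5.40 and 5.65 in metastases 1 to 4. This was 8.26 above the untreated mean of 5.00 ± 0.62 (SD, n = 4), which is near the level of the chemosensory receptors on those arrays (4.67 to 4.93), so no fold is given. Ighv12-3, a heavy chain V segment, read 11.73 against 8.46, 8.40, 9.01 and 7.87. Ighm, the constant region of IgM, read 9.09 against 5.96, 5.19, 6.56 and 6.39, and Jchain, which joins IgM pentamers, read 7.18 against 6.74, 5.37, 5.79 and 6.25. None of the 4 genes overlapped the untreated metastases, but they were picked after the values were seen, and 14.4% of all genes lay above the range. On all 4 the treated metastasis ranked second of the 20 arrays, and the highest was bladder tumor 1 in each case, with 16.16 for Igkv4-91, 13.47 for Ighv12-3, 9.54 for Ighm and 7.81 for Jchain. The treated bladders read 3.43 to 3.91 for Igkv4-91.

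As background, Ighv12-3 and Igkv4-91 are the pair of segments used by a known class of IgM antibodies against phosphatidylcholine, made by B-1 cells of the mouse peritoneal cavity. Ighv11-2, the heavy chain segment of the other well-known class, read 5.81 against 5.70, 5.35, 6.11 and 5.32, within the range. The IgG constant regions differed less: Ighg2b was 0.83 higher (6.74 against 5.72 to 6.38), and Ighg1 was 0.02 higher and within the range. Of 189 immunoglobulin V segments 64 (33.9%) lay above the untreated range and 18 below, and 23 (12.2%) were also past 2-fold, against 1.09% of all genes. None of 108 T cell receptor V segments was past 2-fold, and 12 lay above the range and 17 below. Of the 23, 13 belonged to the Igkv4 family, which has 24 measured members; next after Igkv4-91 came Igkv4-63 (10.13 against 6.36 to 7.58). Members of a family are close in sequence, so their rows may share RNA and are not separate observations. Beside them, in the B and plasma cell list, 2 of 14 lay above the range (Jchain and Cd79a, 0.29) and 1 below (Igll1, -0.66), with a median of 0.02, and Ms4a1, which encodes CD20, was 0.32 higher and within the range.

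**Figure D4:**
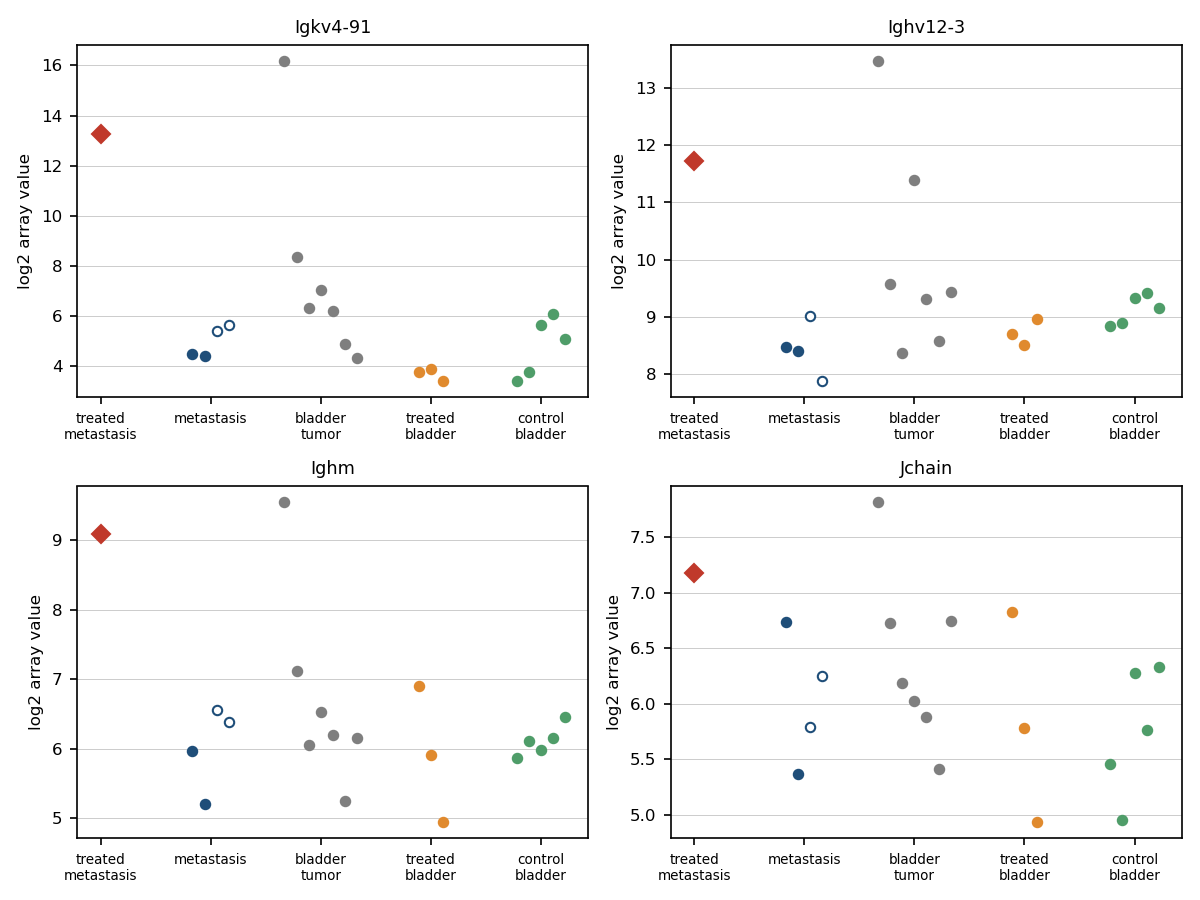
Log2 array values of Igkv4-91, Ighv12-3, Ighm and Jchain in all 20 arrays, by group, with the treated metastasis as a diamond and metastases 3 and 4 as open circles. The treated metastasis (13.26 for Igkv4-91) and bladder tumor 1 (16.16) are the 2 highest arrays in each panel.

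Urothelial genes read low. The luminal urothelium list had 9 of 16 members (56.3%) below the untreated range, against 19.1% of all genes, and 1 above. Its median difference was -0.61 and its mean -0.80, or -0.37 against metastases 1 and 2. Upk3a, a uroplakin of the urothelial surface plaques, read 3.24 in the treated metastasis and 4.55, 4.79, 6.82 and 6.93 in the untreated ones, where the treated value and those of metastases 1 and 2 are near or under the floor. Upk1a, another plaque protein, read 4.29 against 5.31, 5.84, 7.87 and 7.42. Krt18, the keratin of simple epithelium, read 4.14 against 4.47, 6.30, 6.62 and 6.87. Psca read 3.97 against 5.19, 4.77, 6.82 and 6.28. All 4 were at their lowest of the 20 arrays, and on all 4 metastases 1 and 2 were themselves below metastases 3 and 4. The list's mean level was 5.13 in the treated metastasis, 5.14 in metastasis 1, 5.86 in metastasis 2, 6.40 in metastasis 3 and 6.33 in metastasis 4. So the whole list was level with metastasis 1, while Upk3a and Upk1a were lower. Upk3b, described above with the mesothelium, was the member above the range. Defining markers of urothelium were thus among the lowest genes of the treated metastasis, on an array where the chemosensory receptors also read 0.22 below the untreated mean.

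Further genes of urothelial and squamous surfaces followed. Sptssb, a subunit that steers serine palmitoyltransferase, read 3.74 against 5.36, 5.64, 8.72 and 8.47, the lowest difference of the named genes at -3.31. Sprr2b, of the cornified envelope, read 2.84 against 4.36, 3.89, 6.17 and 7.07. Ivl (involucrin), of the same envelope, read 3.53 against 4.66, 4.77, 7.46 and 6.57. The treated metastasis was at the bottom in each, metastases 1 and 2 were intermediate, and metastases 3 and 4 high. Gsdmc2 and Gsdmc3, gasdermins of epithelium, differed by -2.48 and -2.02. Plet1 was 2.12 lower, Ly6d 1.74, Snx31, a urothelial sorting nexin, 1.74, and Fmo5, a flavin monooxygenase, 1.69. Against metastases 1 and 2 these 9 genes were 0.72 to 1.76 lower.

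In the basal and squamous list 10 of 21 lay below the range and 1 above, with a median of -0.19 (mean -0.32, and -0.12 against metastases 1 and 2). Krt5, the basal keratin, read 4.66 against 4.93, 5.31, 6.33 and 6.60, whereas its partner Krt14 read 5.93 against 5.21, 5.70, 5.77 and 5.24. Sprr1a was 0.95 lower and Sprr3 0.51 lower. Of 13 epithelial junction genes 5 lay below and 0 above, with a median of -0.31. Cdh1 (E-cadherin) read 5.08 against 5.05, 5.22, 6.78 and 6.21, level with metastases 1 and 2. Rab25 was 0.70 lower, Ocln 0.33, Tjp3 0.31 and Epcam 0.23.

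Smooth muscle genes depended on the metastases chosen. Against all 4, 8 of 15 lay below the range and 2 above, with a median of -0.57. Against metastases 1 and 2 the mean was -0.09. Actg2, the actin of visceral muscle, read 4.56 against 5.45, 5.50, 7.02 and 7.37. Myh11, the smooth muscle myosin, read 4.57 against 5.34, 5.29, 6.96 and 6.95, and Myl9 read 4.41 against 5.62, 4.89, 6.58 and 6.11. Cnn1 was 0.97 lower. These 4 were lower than every other metastasis, but the list's mean level was 5.56 against 5.61 and 5.68 in metastases 1 and 2. Endothelial genes had 7 of 12 below and 1 above, by small amounts: Emcn was 0.58 lower, Cdh5 0.42, Eng 0.38 and Kdr 0.31, and the median was -0.18, near the -0.22 of the chemosensory receptors.

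**Figure D5:**
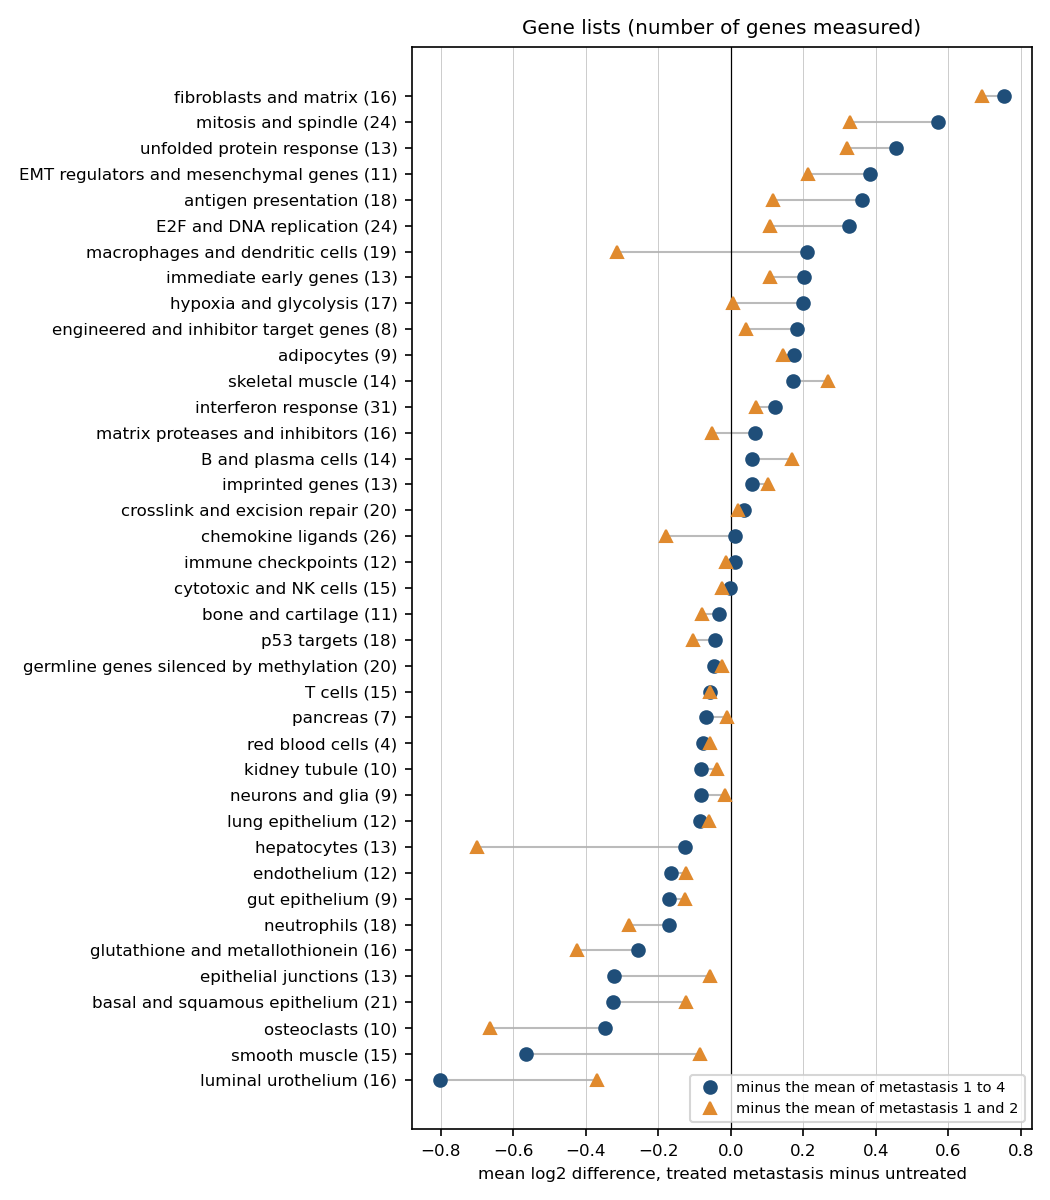
Mean log2 difference of 39 gene lists (sex-linked genes and lists added later are left out) between the treated metastasis and the mean of metastases 1 to 4 (circles) or of metastases 1 and 2 (triangles), with the number of genes measured. Among these, fibroblast and matrix genes (0.75 and 0.69) are the highest by both, luminal urothelium (-0.80) the lowest by circles, and hepatocyte genes (-0.70) the lowest by triangles, where metastasis 2 holds the high values and the difference without it is 0.34.

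Genes of cell division read high in the treated metastasis and higher still in metastasis 1. All 24 mitosis and spindle genes read above the untreated mean, where 43.8% of all genes did, and 7 (29.2%) lay above the range and 0 below. The list's mean level was 6.67 in the treated metastasis, 6.91 in metastasis 1 and 5.78 to 5.89 in the other 3. Ttk, a spindle checkpoint kinase, read 6.05 against 5.66, 4.91, 4.91 and 5.28. Bub1b, of the same checkpoint, was 0.55 higher, Cdc20, an activator of the anaphase complex, 0.51, and Kif20a, a spindle motor, 0.50. Mki67, the common proliferation marker, read 8.25 against 9.31, 6.73, 6.57 and 6.66, within the range, and Top2a read 7.98 against 8.31, 6.12, 6.32 and 6.57. The treated bladders ranged from 5.35 to 6.09 on this list, and the bladder tumors from 5.37 to 6.68, with bladder tumor 6 the highest.

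E2F and replication genes were similar but had 1 of 24 above the range, Mcm5 at 6.38 against 6.24, 5.92, 5.70 and 5.91. Their mean level was 6.33 in the treated metastasis, 6.61 in metastasis 1 and 5.77 to 5.83 in the other 3. Rbl1, which encodes p107, read 7.50 against 8.28, 6.37, 6.59 and 6.72, and Rb1 read 6.00 against 6.30, 6.01, 6.04 and 5.83. Probe positions within these genes were not used here, and no check of the deletions is drawn from these levels.

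The targets of CM272 were measured too. Ehmt2 (G9a) read 6.88 against 6.80, 7.05, 6.74 and 6.71, within the range. Dnmt1, the maintenance methyltransferase, read 8.03 against 8.32, 7.13, 7.36 and 7.18, placed like the replication genes. Dnmt3a, a de novo methyltransferase, read 6.58 against 6.42, 6.30, 6.28 and 6.12, the only one of 8 engineered or target genes above the range. Transcript levels do not measure enzyme inhibition.

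Genes listed here as held silent by DNA methylation were mixed. Of 20 on the germline list, 2 lay above the range and 3 below, beside 14.4% and 19.1% of all genes. Their median was -0.08 and their mean -0.05, which became 0.03 after quantile normalization and 0.05 with each array centred on its median. Hells, a chromatin remodeler that dividing cells also use, was the larger of the pair above at 7.49 against 7.43, 6.57, 6.63 and 6.43. Its values were far above the chemosensory means of these 5 arrays (4.62 to 4.93), so Hells was not silent in the untreated metastases. Dazl, a germ cell RNA-binding protein, was the other at 4.98 against 4.65 to 4.95, near those means. Stag3 was 0.35 lower and Tex11 0.24 lower. Among 13 imprinted genes 5 lay above and 3 below, with a median of -0.14 and a mean of 0.06. Mest read 6.28 against 5.70, 5.65, 5.67 and 5.50, Grb10 was 0.63 higher, Kcnq1ot1, a long noncoding RNA, 0.54, and Sgce 0.45. On Mest, Kcnq1ot1 and Sgce the treated metastasis was the highest of 20 arrays. Xist, made by the inactive X chromosome, read 5.58 against 4.47, 4.76, 5.82 and 6.06.

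Genes linked to cisplatin were mixed. Of 18 p53 targets 7 lay above the range and 8 below, by at most 0.68, with a median of 0.03 and a mean of -0.04, which became 0.05 with each array centred on its median. Cdkn1a (p21), the cell cycle inhibitor, read 6.24 against 6.92, 7.17, 6.25 and 6.67. Perp was 0.68 lower, Fas, the death receptor, 0.51 lower, and Ccng1 (cyclin G1) 0.48 higher. Repair genes for crosslinks and excision had 2 of 20 above and 3 below, with a median of 0.05, and the largest outside the range was Fancl at 0.40.

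Glutathione transferases, which conjugate reactive drugs, held one of the lowest genes. Gstm1 read 5.95 in the treated metastasis and 12.08, 6.98, 8.41 and 9.06 in metastases 1 to 4. The difference from the mean of 4 was -3.18, but the untreated values differed widely among themselves (9.13 ± 2.15, SD, n = 4). Gsta4 read 5.82 against 7.17, 6.69, 8.41 and 7.78. Gstt1 was 0.69 higher. In the list 2 of 16 lay above and 4 below, with a median of 0.02 and a mean of -0.26. Gstm2 read 8.01 against 12.00, 7.35, 7.19 and 7.38, with metastasis 1 again apart.

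Immune genes beyond the immunoglobulins mostly showed small differences. Of 15 T cell genes 0 lay above the range and 3 below, Cd8a (-0.30), Cd5 (-0.26) and Cd28 (-0.19), with a median of -0.06. Cytotoxic and NK cell genes had 2 of 15 above and 4 below, with a median of -0.05. Ccl5 read 6.05 against 5.77, 5.05, 5.28 and 5.30. Ifng read 4.80 against 4.28, 4.40, 4.22 and 4.14, near or under the chemosensory means of these arrays (4.62 to 4.93), so it may not have been detected. Gzmb, a granule protease, was 0.43 lower and Eomes 0.30 lower. Immune checkpoint genes had 4 of 12 above and 2 below, with a median of 0.01: Btla was 0.53 higher, Pdcd1 (PD-1) 0.44 lower, Havcr2 0.43 lower and Lgals9 0.43 higher. Cd274 (PD-L1) read 5.09 against 5.80, 4.99, 5.19 and 5.06.

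Interferon response genes had 6 of 31 above (19.4%, beside 14.4% of all genes) and 1 below (beside 19.1%), with a median of 0.14. Rsad2 read 6.13 against 5.37, 4.99, 5.17 and 5.54, and was 0.86 above the mean. Ifit1 was 0.53 higher, Oasl2 0.51 and Igtp 0.47, each close to the highest untreated value, that of metastasis 1. Cxcl9, an interferon-gamma chemokine, read 5.01 against 7.44, 4.94, 5.93 and 6.19. Among 26 chemokine ligands 6 lay above and 3 below: Cxcl14, made by epithelium, was 1.40 lower, Ccl2 1.08 higher, Cxcl2 0.71 lower and Ccl5 0.70 higher.

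Myeloid genes separated the treated metastasis and metastases 1 and 2 from metastases 3 and 4. The macrophage and dendritic cell list read 6.85 in the treated metastasis and 7.48, 6.86, 6.14 and 6.10 in the untreated ones. Its mean difference was 0.21 against 4 and -0.31 against metastases 1 and 2, so its direction turned. Only Cd209a (0.13 higher) and Itgax (0.17 lower) of 19 were outside the range. Lyz2, lysozyme of macrophages, read 12.44 against 12.75, 12.61, 9.27 and 9.39. Osteoclast genes had 0 of 10 above and 3 below, with a mean of -0.35, or -0.66 against metastases 1 and 2. Against all 4, Oscar was 0.61 lower, Ocstamp 0.37 lower and Itgb3 0.12 lower. Ctsk (cathepsin K), within the range, read 5.88 against 7.64, 7.94, 6.49 and 5.73. Neutrophil genes had 2 of 18 above and 5 below, with a median of -0.15: Cxcl2 was 0.71 lower, Lcn2 0.64 lower, Cxcr2 0.38 higher and Ltf 0.33 lower.

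Genes of possible host organs were set beside these since the site is not labelled. Of 13 hepatocyte genes 0 lay above the range and 1 below. Their mean difference was -0.13 against all 4, -0.70 against metastases 1 and 2, and 0.34 without metastasis 2, so its direction turned on that array. Metastasis 2 held the high values, with Fgg (fibrinogen) at 10.49 against 5.40 in the treated metastasis and 4.40, 5.06 and 4.87 in the other 3. Ahsg (fetuin-A), a plasma protein, read 9.50 in the treated metastasis against 10.58, 10.39, 6.63 and 6.66. Alb (albumin) read 6.86 against 5.06, 9.53, 5.80 and 5.57, lower than in metastasis 2 and above the other 3. Trf, which the list held under the symbol Tf, did not enter the 13 genes. It lay above the range, at 12.34 against 11.92, 11.35, 8.61 and 8.99. None of the genes in the lung, kidney, gut and pancreas lists lay above the range, and 1 of 12, 2 of 10, 4 of 9 and 2 of 7 lay below it, by at most 0.30. Bone and cartilage genes had 3 of 11 above and 4 below. Of 14 skeletal muscle genes 4 lay above and 0 below, with Tnnt3, a fast troponin, highest at 6.15 against 5.31, 5.43, 5.55 and 5.55. Adipoq (adiponectin), a fat cell hormone, read 6.34 against 6.24, 5.25, 5.19 and 5.73, and Lpl (lipoprotein lipase) read 6.90 against 6.75, 6.53, 5.93 and 5.56. Both were the highest of 20 arrays, and they were the 2 of 9 adipocyte genes above the range. Neuron and glia genes had 1 of 9 above and 4 below, and red blood cell genes 0 of 4 above and 1 below.

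Genes of low oxygen and glycolysis had 5 of 17 above the range and 0 below, with a median of 0.20. P4ha1, which hydroxylates collagen, read 7.41 against 6.91, 6.23, 6.27 and 6.62. Gapdh was 0.50 higher, Ldha 0.33 and Car9 0.22, and the list's mean difference against metastases 1 and 2 was 0.01. Immediate early genes had 5 of 13 above and 1 below, with a median of 0.15. Myc read 6.82 against 6.54, 6.06, 6.43 and 6.06, Nr4a1 was 0.27 higher, Ier2 0.22 higher and Ier3 0.21 lower.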

How the data were processed

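RNA from paraffin-embedded tissue (12 ng) was measured on Affymetrix whole-transcript arrays, per the labels' protocols. The submitters' processing notes name RMA and the Affymetrix Expression Console, without versions, as the source of the deposited log2 values, which were used unaltered. Of 65956 rows, 30604 had 1 gene symbol, 2146 several and 33206 none, and 827 symbols were updated. Where a gene had more than 1 row (355 genes), only its brightest row by the mean of 20 arrays entered, which left 30142 genes.

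The treated value was set against the mean of the untreated metastases, and a gene was called if it differed over 2-fold and lay outside their range. No test of the treated metastasis was run: with 1 treated array the spread of the treated group cannot be estimated, and the number of arrays limits the precision. Whether the 4 untreated metastases came from separate mice is not stated, so their SD may partly be spread within a mouse.

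The 15 highest and 15 lowest genes were named, leaving out predicted genes, small RNAs, pseudogenes, and segments and receptors of large families, and in each list the 4 members furthest outside the range. Defining markers were named too. The members and lists were chosen with earlier results of these data known, and the mesothelium, proteoglycan, galectin, antigen receptor segment and chemosensory lists, and other genes named within the range, after their values were seen. The calling step was checked on simulated data with known differences, which checks the arithmetic only. Alternatives were metastases 1 and 2 alone, each metastasis left out, the median in place of the mean, other fold thresholds, quantile normalization, median centring, dim genes left out and the mean over rows. Protein-coding genes alone were added after seeing the data. Python 3.11.15, pandas 2.3.3, numpy 2.4.6 and matplotlib 3.10.9 were used. Promoter sequences came from RefSeq.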

Additional observations from a re-analysis of the deposited data

Results flagged for a closer look

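Among the untreated metastases, 1 array stood far from the other 3 in 7 of 70 groups of values examined (30 named genes and 40 lists), where chance flags about 1 in 20. Metastasis 3 read 11.59 for Hspa8, against 14.59 to 14.79 in the other 3. Metastasis 1 was the outlying array in the 6 other groups, always on the high side. Its mean was 6.91 for mitosis and spindle genes (5.78 to 5.89 in the others, 6.67 in the treated metastasis). It was 6.61 for E2F and replication genes (5.77 to 5.83, treated 6.33). It was 7.38 for antigen presentation (6.54 to 6.68, treated 7.15). For the unfolded protein response it was 7.26 (6.65 to 6.74, treated 7.29). Glutathione and metallothionein genes gave 7.08 (6.35 to 6.44, treated 6.31), and chemokine ligands 6.68 (5.86 to 5.92, treated 6.09).

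Rows without a single gene name were left out of the comparisons. Of these 35352 rows, 346 (0.979%) read over 2-fold above the untreated mean and above its range in the treated metastasis, and 91 read below. On 228 of the 346 the treated metastasis was also above every control bladder. The share over all 35352 rows was not counted, so 228 has no baseline here.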

How the results depend on the processing

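No paired analysis was possible because the labels do not say which metastases share a mouse. The count of higher genes was 203 against metastases 1 and 2 and 168 after quantile normalization. Leaving out 1 metastasis at a time gave 276 to 608 higher and 82 to 165 lower genes, with both high ends without metastasis 1. A 1.5-fold threshold gave 1030 higher and 690 lower, a 4-fold threshold 37 and 9, and protein-coding genes alone 101 and 45, or 67 and 60 against metastases 1 and 2. Of the list means, those that moved by more than the spread after quantile normalization were 0.0877 for cytotoxic, 0.0465 for bone, 0.553 for fibroblast and matrix, 0.0336 for kidney, -0.0666 for gut, 0.00924 for red blood cell, 0.0250 for neuron and 0.0277 for germline genes. With each array centred on its median they were 0.0501 for p53 targets, 0.0935 for cytotoxic, 0.0635 for bone, -0.0689 for endothelial, 0.0139 for kidney, -0.0752 for gut, 0.0180 for red blood cell, 0.0134 for neuron, 0.0489 for germline and 0.233 for sex-linked genes. With dim genes left out they were 0.122 for T cell, 0.0955 for cytotoxic, 0.250 for checkpoint, 0.395 for B and plasma cell, 0.323 for skeletal muscle, 0.0215 for red blood cell, -0.407 for neuron and 0.118 for germline genes. The cause was not tested. Of the other values, 405 for counts and lists and 362 for single genes and added lists stayed within the spread, or within 1.5 times for counts, and 8 of the latter did not, among them B2m (1.19) and Angptl7 (2.19) after quantile normalization and Armcx3 (1.10) with the mean of its rows. The mean of the hepatocyte list, -0.13, was 0.34 without metastasis 2 and 0.22 against the median. With 1 treated array, its own spread is unknown, and values near the floor of the array carry little information.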

Other observations

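Mir684-1 and Mir684-2, 2 microRNA loci, were left out by the rule for named genes and were picked after their values were seen. Mir684-1 read 16.01 in the treated metastasis and 14.15, 12.14, 12.47 and 10.95 in metastases 1 to 4, and Mir684-2 read 15.88 against 14.02, 12.02, 12.53 and 10.77. Both were the highest of the 20 arrays, and as loci of one microRNA they are not separate observations.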
